A study of Homo sapiens with 6 samples.

Results

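The chemokines and cytokines that epithelial cells release when they meet bacteria, interleukin 1 or tumour necrosis factor were followed in breast epithelial cells that had become resistant to fluvastatin. The set holds 10 genes, chosen by symbol: the neutrophil chemokines CXCL1, CXCL2, CXCL3, CXCL5, CXCL6 and CXCL8, the monocyte chemokine CCL2, the chemokine CCL20, and the cytokines IL6 and LIF. They are 10 of the 81496 gene symbols on the Clariom D array, which measures coding and noncoding RNA with short oligonucleotide probes, and each of the 10 is represented by 1 probe set. The parental line was MCF10.AT1, a preneoplastic human line that descends from the breast epithelial line MCF10A and carries an activated HRAS, and its cells were untreated. The resistant line, MCF10.AT1-R, was selected from it by adding fluvastatin, an inhibitor of the cholesterol-synthesis enzyme HMG-CoA reductase, in steps of 1, 5 and up to 20 µM. Whether the drug was still present when RNA was taken, and whether MCF10.AT1-R is 1 clone, is not given in the sources used here, so selection and exposure cannot be told apart. Both lines carry the HRAS oncogene, and the medium described for the MCF10A series holds hydrocortisone, EGF and insulin.

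The chemokines of the CXC group with the letters ELR before their first cysteines act through CXCR1 and CXCR2 and draw neutrophils, while CCL2 and CCL20 draw cells that carry CCR2 and CCR6, such as monocytes and Th17 cells. IL6 and LIF signal through receptors that share the chain IL6ST (gp130) and activate JAK kinases and STAT3. In epithelial cells the genes of this group are classical targets of NF-kB, AP-1 and C/EBP factors, and their mRNAs are short-lived because AU-rich elements recruit decay factors. The comparison of the lines asked whether these genes and the pathways around them differed between cells sensitive and resistant to the statin.

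The promoters show what the genes have in common apart from the arrays. RefSeq promoter sequences (GRCh38.p14, 250 bases before to 50 after the gene start) were matched for 8 of the 10 genes, and CCL2 and LIF had no entry. The letters GGNNTTTCC, a kB-type motif read on both strands with N for any base, were present in 8 of these 8 promoters and in 6.26% of all 35116 promoters of the same length. The stretch from -95 to -21, counted from the gene start, is printed 5′ to 3′ on the strand of the gene to show this shared motif, which stands in capitals.
CXCL1, chr4:73869298-73869372, plus strand: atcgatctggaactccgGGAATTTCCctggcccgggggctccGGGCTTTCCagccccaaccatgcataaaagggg
CXCL2, chr4:74099216-74099290, minus strand: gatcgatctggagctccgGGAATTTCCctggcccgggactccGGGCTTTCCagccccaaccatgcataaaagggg
CXCL3, chr4:74038710-74038784, minus strand: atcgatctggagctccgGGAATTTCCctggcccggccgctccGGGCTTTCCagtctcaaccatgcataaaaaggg
CXCL5, chr4:73998698-73998772, minus strand: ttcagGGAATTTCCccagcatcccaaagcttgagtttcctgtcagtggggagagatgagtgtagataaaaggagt
CXCL6, chr4:73836583-73836657, plus strand: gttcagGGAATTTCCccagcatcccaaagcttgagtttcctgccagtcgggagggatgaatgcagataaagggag
CXCL8, chr4:73740474-73740548, plus strand: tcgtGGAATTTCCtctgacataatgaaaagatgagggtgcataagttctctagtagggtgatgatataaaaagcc
CCL20, chr2:227813747-227813821, plus strand: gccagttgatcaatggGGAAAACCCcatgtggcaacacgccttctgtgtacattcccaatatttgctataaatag
IL6, chr7:22727105-22727179, plus strand: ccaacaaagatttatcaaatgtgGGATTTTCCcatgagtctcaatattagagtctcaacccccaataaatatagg
CXCL1, CXCL2 and CXCL3 held the letters at both places shown, and CCL20 was the gene whose match lay on the opposite strand, at -79 to -71. The genes were chosen by name and are classical targets of NF-kB, so the kB-type matches describe the set and test nothing. The matches are also not independent, since several of these genes are close copies. Over the 250 bases before the start, the promoters of CXCL5 and CXCL6 were 85.3% identical, those of CXCL1 and CXCL3 81.4%, those of CXCL2 and CXCL3 73.3%, and those of CXCL1 and CXCL2 71.4%. The 6 CXC genes all lie on chromosome 4, whereas CCL20 lies on chromosome 2, IL6 on 7, CCL2 on 17 and LIF on 22. The AP-1 letters TGANTCA were found in 1 of the 8 promoters, that of CXCL8, against 7.71% of all promoters. The C/EBP letters TTGCNNAA were found in 2, CXCL2 and IL6, against 10.5% of all promoters, and TATAAA in CXCL8 and CCL20, against 11.5%. None of these matches is a measured binding site, and no match overlapped a match of another motif.

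**Figure D1:**
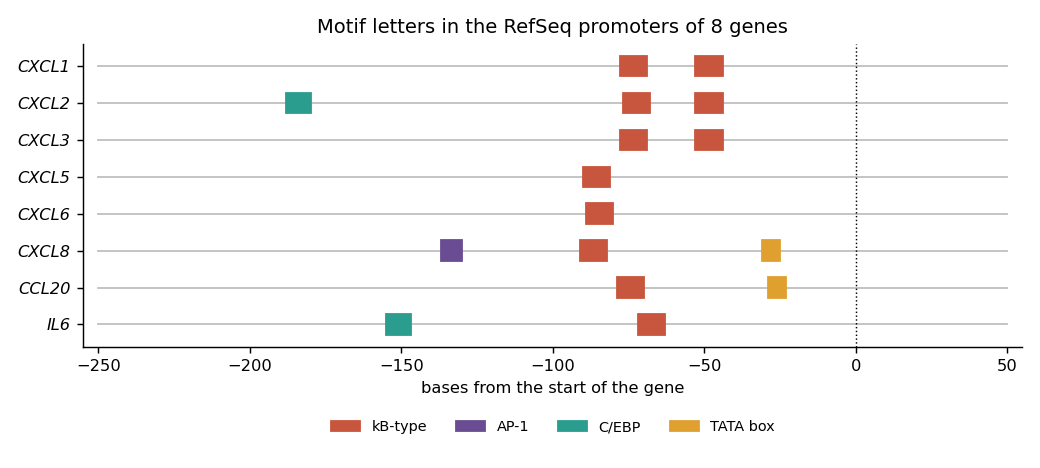
Positions of the motif letters in the 8 matched promoters, in bases from the gene start (x axis), with 1 row per gene and 1 colour per motif. A kB-type match lies between -91 and -45 in each of the 8 promoters, and the other motifs are present in at most 2 of them.

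The values are log2 levels made by the authors with RMA, a method that corrects the background, sets the arrays to 1 distribution and summarises the probes. The labels give 3 numbered replicates of each line, and the paper calls them biological replicates. The arrays were A01, A02 and A03 for MCF10.AT1 and B02, B03 and B04 for MCF10.AT1-R. A03, which the study removed, stood apart: its correlation with the other arrays over 135750 transcript probe sets was 0.779 to 0.795, against 0.967 to 0.977 among the other 5, and its 4 hybridization controls averaged 5.99 against 10.35 to 11.33. Its values are therefore given apart, and the lines were compared on 2 parental and 3 resistant arrays. A line and the letter in its arrays' names cannot be told apart. A gene was called within the negative controls on an array when it lay at or under the 95th percentile of the array's 612 negative control probe sets, which was 2.88 to 3.14 on the 5 arrays. Values of different genes come from different probes and are not ranked against each other here.

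Of the 10 genes, 5 were measured above the negative controls on all 5 arrays, namely CXCL2, CXCL3, CXCL6, CCL20 and LIF. CXCL1, CXCL8, CCL2 and IL6 lay within the negative controls on all 5 arrays, and CXCL5 on 4 of the 5. Over all gene symbols 57.8% lay within the negative controls on all 5 arrays. For CXCL1, CXCL8, CCL2, IL6 and CXCL5 the log2 differences below are between values at or near the background, and they are given as computed and not as fold changes.

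Of the 10 genes, CCL20 alone passed the test between the lines, and it was lower in MCF10.AT1-R. The test was limma with Benjamini-Hochberg adjustment at an FDR of 5%, over 51457 probe sets that had passed filters on low mean and low SD. It called 1.2% of these probe sets, 0.758% as higher and 0.447% as lower. The filters kept 8 of the 10 genes, IL6 being removed for its low mean and CXCL5 for its low SD, and CCL20 was also the 1 gene of the 10 with an unadjusted p under 0.05. Of all tested probe sets 8.26% had such a p, 3.98% as higher and 4.27% as lower. The resistant and parental arrays were fully separated for 4 of the 10 genes, with LIF and CCL2 higher and CCL20 and CXCL6 lower in MCF10.AT1-R. Of all transcript probe sets 23.3% were so separated, 12.2% with MCF10.AT1-R above and 11.1% below. The median log2 difference of the 10 genes, MCF10.AT1-R minus MCF10.AT1, was 0.05, beside 0.01 over all transcript probe sets.

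**Figure D2:**
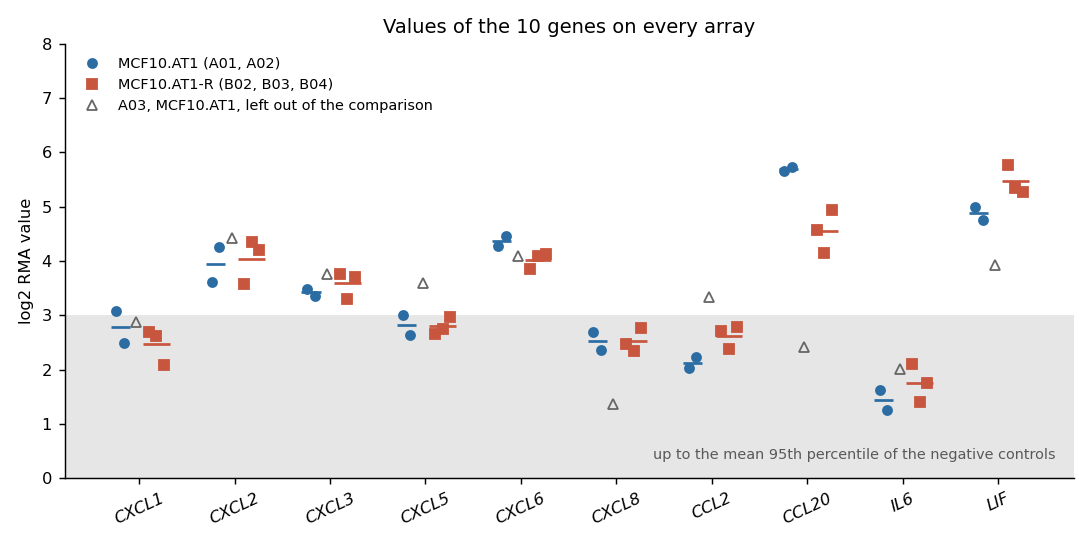
log2 RMA level (y axis) of each of the 10 genes on each array, with parental, resistant and A03 points apart and the line means drawn as bars. The grey band reaches up to 2.99, the mean over the 5 arrays of the negative controls' 95th percentile; CCL20 and LIF are the genes above it whose arrays lie farthest apart between the lines.

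CCL20 is the ligand of CCR6 and draws dendritic cells, B cells and Th17 cells to epithelia. Its log2 level (TC0200010980.hg.1) was 5.66 and 5.73 on the parental arrays and 4.56, 4.14 and 4.95 on the arrays of MCF10.AT1-R. Both parental arrays lay above all 3 resistant arrays, with 0.71 between the nearest of them, and the resistant arrays spread more widely. The means were 5.69 ± 0.05 (SD, n = 2) and 4.55 ± 0.40 (SD, n = 3). CCL20 fell by 1.14 ± 0.31 (SE) on the log2 scale, with an adjusted p = 0.0252 from limma, which corresponds to 0.453 times the parental level (95% confidence interval 0.296 to 0.691). At an FDR of 5% the call stood in 9 of 17 alternative settings. 1 of these 9, the mean of all probe sets of a symbol, repeats the same values, since CCL20 has 1 probe set. It was lost with the low-expression filter alone (adjusted p = 0.243 from limma), without a filter (0.316), with a stricter SD filter (0.081), and without A01 (0.283), A02 (0.419), B02 (0.067) or B03 (0.181). Outside these 17 it was also lost at an FDR of 1%, and when values under 2.99 were raised to that floor before the fit (adjusted p = 0.195 from limma). Every CCL20 value lay above that floor and the change stayed at -1.14. That loss therefore came from the fit over all probe sets and not from the CCL20 values. Across the settings without A03 the change stayed between -1.34 and -0.94. A03 read 2.42 for CCL20, within its negative controls, and with that array included the change was -0.05 (adjusted p = 0.985 from limma).

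LIF, the leukemia inhibitory factor, is a cytokine of the IL6 family that signals through LIFR and IL6ST. It was measured (TC2200008425.hg.1) at log2 levels of 5.00 and 4.76 on the parental arrays and of 5.77, 5.35 and 5.28 on the resistant arrays. Every resistant array was above both parental arrays, and the nearest pair was 0.27 apart. The means were 4.88 ± 0.17 (SD, n = 2) and 5.47 ± 0.26 (SD, n = 3), a difference of 0.58 on the log2 scale (95% confidence interval -0.03 to 1.19), or 1.5-fold (0.981 to 2.29). The difference missed the threshold, with an adjusted p = 0.645 from limma, and LIF was called in 0 of the 17 alternative settings, where the adjusted p ran from 0.255 to 0.942. A03 read 3.93, below the other parental arrays.

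**Figure D3:**
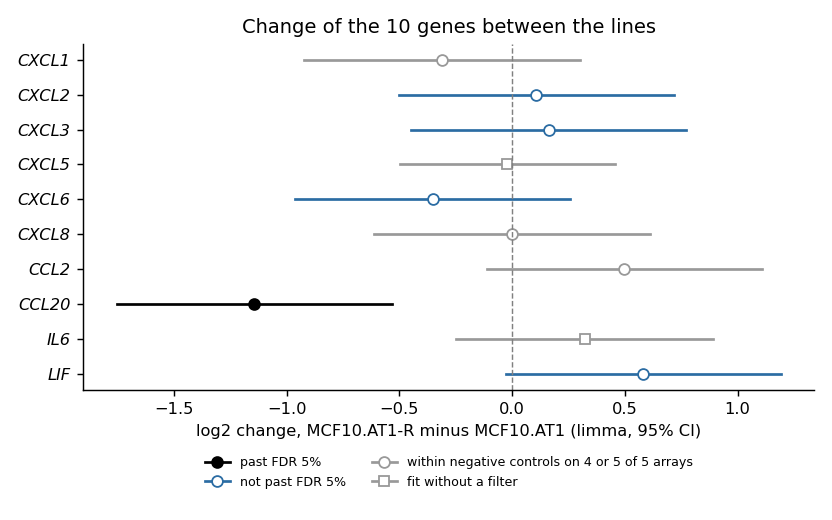
Difference of the lines in log2 units (x axis, MCF10.AT1-R minus MCF10.AT1) for each of the 10 genes. Lines are 95% confidence intervals from limma over 2 and 3 arrays. Squares mark IL6 and CXCL5, which come from the fit without a filter, and the other intervals rest on 1 common SD of 0.34. The interval of CCL20 (-1.75 to -0.53) lies below 0, and the intervals of the other 9 genes include 0.

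The neutrophil chemokines showed no difference past the threshold. CXCL6, whose product acts on CXCR1 and CXCR2 and also kills bacteria, had log2 levels (TC0400012814.hg.1) of 4.28 and 4.46 on the parental arrays and of 3.85, 4.08 and 4.12 on the resistant arrays. Each resistant array lay below both parental arrays, but the nearest were only 0.16 apart. The difference was -0.35 (95% confidence interval -0.96 to 0.26, adjusted p = 0.83 from limma). CXCL6 and CXCL5 are near-copies, and probes that fit both could carry signal from one to the other, as could those of CXCL1, CXCL2 and CXCL3, so these 5 values are uncertain.

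CXCL2, a neutrophil chemokine of macrophages and epithelium, had log2 levels (TC0400011018.hg.1) of 3.61 and 4.26 on the parental arrays and of 3.58, 4.35 and 4.21 on the resistant arrays. CXCL3, its close relative, had 3.49 and 3.36 on the parental and 3.76, 3.30 and 3.70 on the resistant arrays (TC0400011015.hg.1). In both genes the arrays of the lines overlapped, and in CXCL2 the spread within each line was larger than the difference between them. The differences were 0.11 (95% confidence interval -0.50 to 0.72) for CXCL2 and 0.16 (-0.45 to 0.77) for CXCL3, with adjusted p = 0.938 and 0.902 from limma. These intervals still allow a change of up to 0.72 and 0.77 log2 units, respectively.

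CXCL8 (interleukin 8), the best known neutrophil chemokine of human epithelium, was at log2 levels (TC0400007836.hg.1) of 2.69 and 2.36 on the parental arrays and of 2.46, 2.34 and 2.77 on the resistant arrays. All 5 values lay within the negative controls and the lines overlapped. CXCL1, an ELR chemokine first known as a melanoma growth factor, had 3.07 and 2.49 on the parental and 2.70, 2.63 and 2.08 on the resistant arrays, also within the negative controls (TC0400007840.hg.1). CXCL5 had 3.00 and 2.63 against 2.66, 2.75 and 2.97, and only B04 exceeded its controls (TC0400011014.hg.1). Adjusted p from limma was 0.999 for CXCL8, 0.838 for CXCL1 and, in the fit without a filter, 0.992 for CXCL5.

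CCL2, which draws monocytes through CCR2, had log2 levels (TC1700007557.hg.1) of 2.03 and 2.22 on the parental arrays and of 2.71, 2.37 and 2.79 on the resistant arrays. The resistant arrays were all higher, by 0.15 between the nearest, yet each of the 5 values lay within the negative controls (difference 0.50, adjusted p = 0.743 from limma). IL6, a cytokine of the acute phase response, had 1.61 and 1.25 on the parental and 2.10, 1.41 and 1.75 on the resistant arrays, which overlapped within the negative controls (TC0700006890.hg.1, adjusted p = 0.863 from limma without a filter). The parental array A03 lay outside the other arrays for 7 of the 10 genes. CXCL2, CXCL3, CXCL5 and CCL2 were higher there than on every other array, and CXCL8, CCL20 and LIF were lower.

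**Figure D4:**
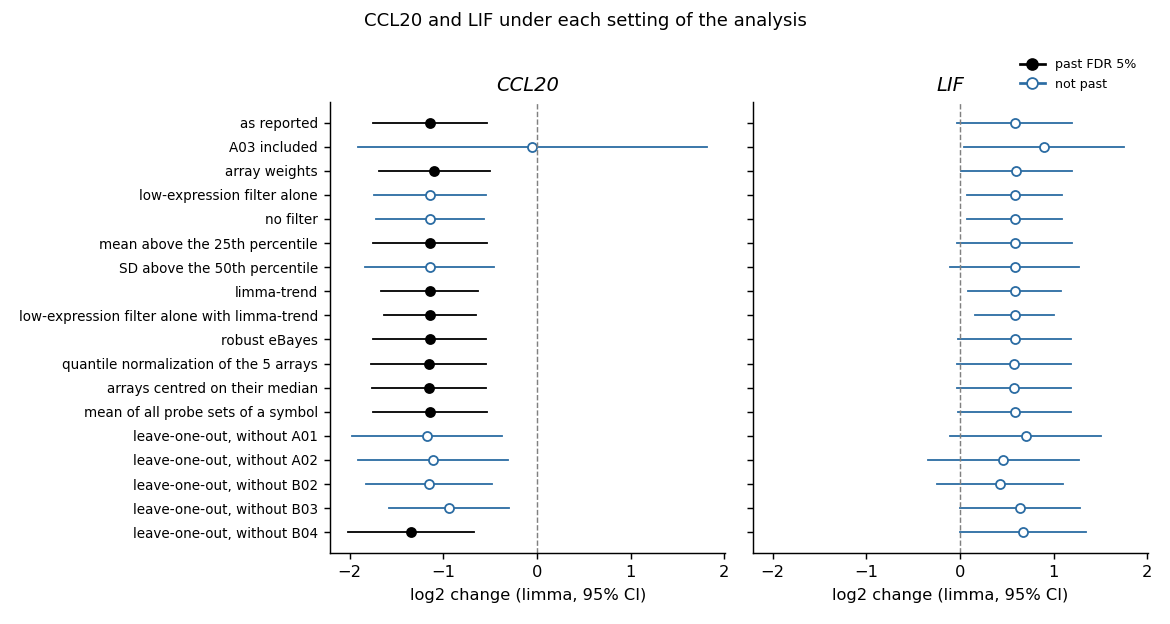
log2 change of CCL20 and of LIF (x axis, MCF10.AT1-R minus MCF10.AT1, with 95% confidence intervals from limma) under the reported analysis and each of 17 alternatives (rows); filled points passed an FDR of 5%. CCL20 passed in 9 alternatives and LIF in 0, and the point of CCL20 moves to -0.05 when A03 is included.

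By profile over the 5 arrays, the nearest to CCL20 of 35664 tested gene symbols in none of the lists were stakaby, VPS52 and HTATSF1. Likeness was the root mean square distance of the log2 profiles after each was centred on its mean, and it was 0.03, 0.09 and 0.09 log2 units. Their changes were -1.15, -1.22 and -1.05 (adjusted p = 0.0233, 0.0122 and 0.0598 from limma). The mean of stakaby in MCF10.AT1-R was 2.50 ± 0.37 (SD). This mean lay under the negative-control limits of B02, B03 and B04, which were 2.88, 2.96 and 2.95. The change of stakaby therefore ends in the background, and it is given as computed and not as a fold change. The 5 arrays share their normalization, and the likeness is a description.

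The receptors of the 10 genes held no called gene among 8, by limma, and 1 of the 8, LIFR, had an unadjusted p under 0.05. Of all tested probe sets 1.2% were called and 8.26% had such a p. In the fit without a filter, which gave the value of LIFR, 9089 of 135750 had such a p. LIFR, the receptor of LIF, had log2 levels of 2.59 and 2.33 on the parental and of 1.36, 1.48 and 1.23 on the resistant arrays, all within the negative controls (difference -1.10, adjusted p = 0.152 from limma without a filter). CXCR2 likewise lay within the negative controls on all 5 arrays (difference -0.55, adjusted p = 0.685 from limma), as did CXCR1 and ACKR1. IL6ST, the shared signalling chain, was at 7.14 and 7.03 against 7.14, 6.90 and 7.15, and it differed by -0.02. IL6R differed by 0.00. CCR6, the receptor of CCL20, lay within the negative controls on 4 of the 5 arrays (difference 0.27, and 0.055 with values under 2.99 raised to that floor). The median of the receptors was -0.07.

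Among the inflammatory ligands and the NF-kB genes, the called changes were higher in MCF10.AT1-R. Over all tested probe sets 1.2% were called, 0.758% as higher. Of 10 inflammatory ligands only IL1A was called, with 5 of the 10 within the negative controls on all 5 arrays and a list median of 0.28. IL1A, the alarmin interleukin 1 alpha that activates NF-kB, had log2 levels of 3.68 and 3.47 on the parental and of 5.63, 4.90 and 5.81 on the resistant arrays, a rise of 1.87 or 3.65-fold (adjusted p = 9.7e-07 from limma). Of 10 inhibitors and feedback genes of NF-kB 1 was called, TNFAIP3, and the list median was 0.36. TNFAIP3 (A20), an enzyme that switches NF-kB signalling off and is itself induced by it, had 4.16 and 3.85 on the parental and 6.54, 5.61 and 6.41 on the resistant arrays, a rise of 2.18 or 4.54-fold (adjusted p = 1.78e-09 from limma). In both genes every resistant array lay above every parental array. With the low-expression filter alone neither was called (adjusted p = 0.054 for TNFAIP3 and 0.0819 for IL1A from limma), and without a filter IL1A was not called (0.0804). Of 10 NF-kB subunits and activating kinases 0 were called by limma, with 4 at an unadjusted p under 0.05, 3 of them higher (beside 8.26% and 3.98% of all tested probe sets), and a median of 0.14. The largest differences there were those of NFKB2 (0.81, adjusted p = 0.295) and RELB (0.77, adjusted p = 0.357), the subunits of the noncanonical branch, by limma. The gene lower at an unadjusted p under 0.05 was the kinase IKBKB (-0.65, adjusted p = 0.539 from limma).

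Downstream of IL6 and LIF, 1 of 10 genes of the JAK-STAT3 pathway was called, JAK1, beside 1.2% of all tested probe sets. The list median was 0.35. JAK1, a kinase bound to IL6ST, had log2 levels of 8.15 and 8.07 on the parental and of 9.41, 9.36 and 9.40 on the resistant arrays, a rise of 1.28 or 2.43-fold (adjusted p = 0.00583 from limma). Its call was lost without a filter and when A01 or A02 was left out, with adjusted p up to 0.224 from limma, while the change stayed between 1.25 and 1.32. STAT3 differed by 0.54 (adjusted p = 0.696 from limma).

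Among other secreted factors 1 chemokine and 1 cytokine were called, beside 1.2% of all tested probe sets. Of 24 other chemokines matched, out of 25 listed, 1 was called, 11 lay within the negative controls on all 5 arrays and the median was 0.11. That gene was CXCL16, a chemokine made as a membrane protein that binds CXCR6, with log2 levels of 5.18 and 5.06 on the parental and of 7.54, 7.46 and 7.82 on the resistant arrays, a rise of 2.48 or 5.60-fold (adjusted p = 1.54e-12 from limma). Of 10 other cytokines of the IL6 family and colony-stimulating factors 1 was called, CSF1, with a median of -0.03. CSF1, the growth factor of macrophages, had 6.95 and 6.75 on the parental and 5.31, 5.43 and 5.49 on the resistant arrays, a change of -1.44 or 0.368-fold (adjusted p = 0.000743 from limma), and the call was lost without A01 (0.118). Among 10 decay factors of cytokine mRNAs 0 were called by limma and 0 had an unadjusted p under 0.05, with a median of 0.18. The largest differences there were those of HNRNPD (AUF1), at -0.59 (adjusted p = 0.639), and RC3H1, at 0.44 (adjusted p = 0.789), by limma. With the trend option of limma, which lets the spread depend on the level, 2.68% of tested probe sets were called, 1.69% as higher and 0.981% as lower, and 3 more genes of these lists with them, picked out after their values were seen. They were TNIP1 (1.01, adjusted p = 8.27e-07), STAT3 (adjusted p = 0.0333) and HNRNPD (adjusted p = 8.47e-06).

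**Figure D5:**
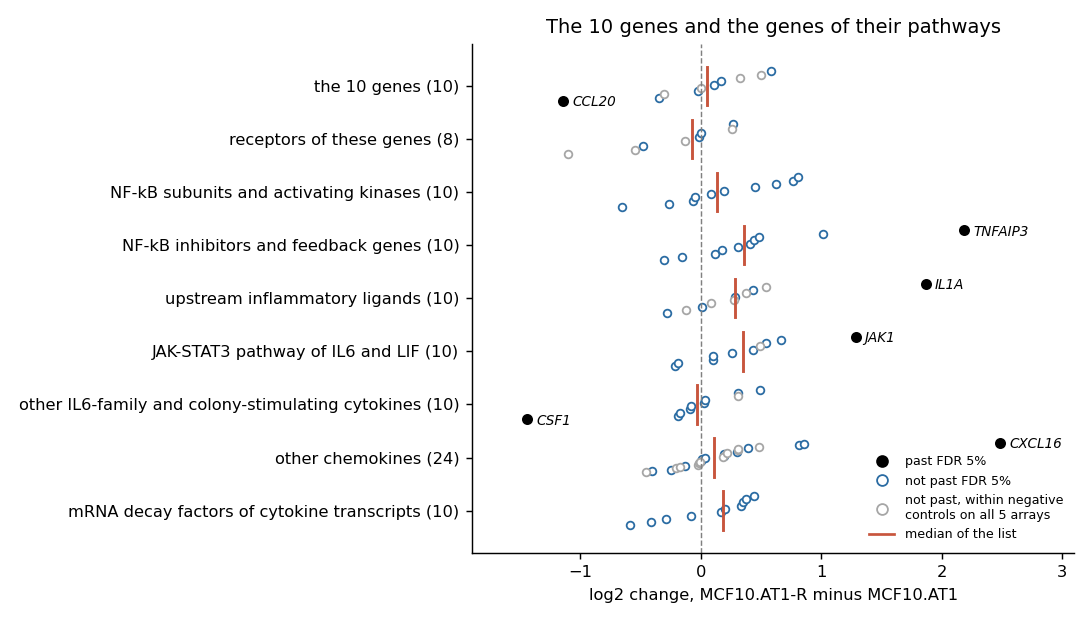
log2 change (x axis, MCF10.AT1-R minus MCF10.AT1) of every gene in the 10 genes and the 8 lists around them (rows, with the number of genes in brackets); filled points passed an FDR of 5% by limma, grey points lay within the negative controls on all 5 arrays, and bars are medians. Each list has at most 1 called gene, and the medians lie between -0.07 and 0.36.

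Markers of cell types were read beside these results. Of all tested probe sets limma called 1.2%, 0.758% as higher and 0.447% as lower. All 8 basal breast epithelial markers were above the negative controls on all 5 arrays, and 5 rose in MCF10.AT1-R: KRT5 (1.71), KRT14 (2.37), KRT17 (4.08), TP63 (1.74) and CDH1 (1.30). The sum of the 8 log2 levels was 54.6 to 55.8 on the parental and 68.1 to 68.9 on the resistant arrays. Of 8 markers of cornifying keratinocytes 3 were called, all higher, IVL by 3.23. FLG and CASP14 were within the negative controls on all 5 arrays, and only 3 of the 8 were above them on all 5. The sum was 23.9 to 24.1 against 29.2 to 31.1. Of 8 leukocyte markers CD14 alone was called (-1.12, adjusted p = 0.0298 from limma). PTPRC and LYZ were within the negative controls on all 5 arrays, but 5 of the 8 were above them on all 5. The sums were 25.8 to 26.5 and 26.4 to 28.3. Of 8 fibroblast markers DCN was lower (-2.15) and FAP higher (1.18). LUM and PDGFRB were within the negative controls on all 5 arrays, but 4 of the 8 were above them on all 5. The sums were 38.1 to 38.7 and 36.8 to 37.9. Of 8 endothelial markers PECAM1 was lower (-1.12, adjusted p = 0.0307 from limma). KDR and TEK were within the negative controls on all 5 arrays, but 5 of the 8 were above them on all 5. The sums were 27.7 to 28.8 and 26.2 to 26.5. The calls of CD14 and KRT1 were lost when any 1 of the 5 arrays was left out. That of PECAM1 was lost without A01, A02, B02 or B03, that of CDSN without A01, A02, B02 or B04, that of FAP without A01, A02 or B04, and that of CDH1 without A01 or A02. Over the 17 alternatives KRT1 was called in 7, CD14 in 8, PECAM1 and CDSN in 9, FAP in 10 and CDH1 in 13. The part of these shifts in the changes of CCL20, CXCL16 and the other genes was not tested. In bulk RNA, fewer cells that express a gene and less RNA per cell cannot be told apart.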

How the data were processed

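Clariom D arrays measured total RNA of 3 samples of each line. The deposited values are log2 levels that the authors made from CEL files by RMA with the Bioconductor packages affy and oligo, on all 6 arrays and without a filter. The versions and the genome build are not given in the sources used here. Column names hold array codes, and the study's plot of its arrays gave each code's line. No code could be tied to a replicate number. The 5 arrays without A03 were compared in R 4.3.3 with limma 3.58.1 (lmFit, eBayes), and Benjamini-Hochberg adjustment set the FDR at 5%. Tested probe sets had a mean above the median of all (1.88) and an SD above the lowest 25% (0.18). These limits were chosen here, since the study states none. The filter led limma to 1 common SD of 0.34. A fit of all probe sets gave the values of genes that the filter removed. A first run of limma on simulated normal values checked the size and sign of fitted changes, not the FDR of the calls. Where several probe sets share a symbol, the one with the highest mean was used. Named are the 10 genes, the called genes of each list (at most 5), or, where none was called, the 2 with the largest difference, defining markers at background, and the 3 nearest profiles to CCL20. A few others are given for their role. The genes and lists were chosen with earlier results of these data known. For genes that passed the filter, reported p-values and intervals rest on the common SD of 0.34, not on each gene's own spread between samples. Separate cultures of these samples are not described, and the number of arrays limits precision. Tables were made with Python 3.11.15 and promoter identities with Biopython 1.88.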

Additional observations from a re-analysis of the deposited data

How the results depend on the processing

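Each of the 10 genes was recomputed with A03 included, each array left out, array weights, other filters, limma-trend, robust eBayes, other scalings, the mean of all probe sets of a symbol and an FDR of 1%. The number of the 10 genes past the threshold, 1 as reported, was 0 with A03 included, with the low-expression filter alone, without a filter, with the SD above the 50th percentile and at an FDR of 1%, and 0 to 1 when each array was left out. The number of probe sets past the threshold, 620 as reported, was 26 with A03, 182 with the low-expression filter alone, 177 without a filter, 408 with the stricter SD filter, 1377 with limma-trend, 1086 with limma-trend and the low-expression filter, and 386 at an FDR of 1%. Leaving out each array gave 271 to 595. The cause was not tested. Genes whose arrays do not overlap numbered 1 with A03 and 4 to 6 with an array left out, against 4, while the share of all transcript probe sets so separated was 12.4% with A03 and 36.3% to 51.2% with an array left out. Only the differences nearest to 0 turned their sign. CXCL2 (0.11) was -0.055 with A03, and -0.22 to 0.44 when each array was left out. CXCL5 (-0.02) ranged from -0.21 to 0.16 when each array was left out. CXCL8 (-0.00) was 0.39 with A03, 0.019 with array weights, 0.0061 with quantile normalization and -0.17 to 0.17 when each array was left out. With A03 included TNFAIP3, IL1A, JAK1, CSF1 and CXCL16 were not called, and CSF1 turned to 0.25. With values under the floor raised to it, CCL20, TNFAIP3 and IL1A were not called (adjusted p = 0.195, 0.094 and 0.113 from limma). With a single parental array left, that array is assumed to vary like the resistant ones. Each of the 10 genes has 1 probe set, so the mean of all probe sets of a symbol repeated its values. For these genes that setting is not an independent alternative. No paired analysis was possible because the array names carry no replicate numbers.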
